A study of Homo sapiens with 4 samples.

Results

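The genes described here encode 8 histone variants grouped as replication-independent (not tied to S phase), which come mostly from polyadenylated messages. They include the H3.3 genes H3F3A and H3F3B, the H2A.Z genes H2AFZ and H2AFV, and H2AFX (H2A.X), whose message also holds a histone stem-loop. The others are H2AFY (macroH2A) and the linker histones H1FX and H1F0. All 8 were chosen by gene symbol in GENCODE release 29. Each was found as 1 transcript among the 16292 transcripts listed in at least 1 library. The levels come from Ribo-seq, which sequences the mRNA pieces that ribosomes cover, in HEK293, an established human embryonic kidney line. There were 4 groups with 1 library each: wild type without erythromycin, wild type with erythromycin, RPL4 mutant without erythromycin and RPL4 mutant with erythromycin. RPL4 is a large-subunit ribosomal protein that lines the exit tunnel, and erythromycin is a macrolide antibiotic that binds this tunnel in bacterial ribosomes. The labels speak of stable lines carrying GFP, unaltered L4 or a Δloop form, and of lentiviral shRNA to RPL4 or a scramble. They also name cycloheximide, which holds elongating ribosomes, and lactimidomycin, which holds initiating ones. The sources used here do not state which of these applied to which library, the dose of erythromycin or the number of cell clones. Footprint levels combine the amount of a message with how much it is translated, and the 2 cannot be told apart here, nor can fewer cells making a message and less of it per cell.

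Histones wrap DNA into nucleosomes. Most histone protein is made in S phase from clustered replication-dependent genes, whose messages end in a stem-loop in place of a poly(A) tail. Variant histones come mostly from polyadenylated messages and can be placed in chromatin outside S phase: H3.3 at active genes and at heterochromatic repeats, H2A.Z at promoters, H2A.X as the form phosphorylated beside DNA breaks, macroH2A in silent chromatin, and H1.0 in slowly dividing or differentiated cells.

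The H3.3 genes are shown first, because they encode the same protein from messages that footprints can tell apart. Over the 411 coding bases (stop codon included) H3F3A and H3F3B differed at 88 positions and in 79 of 136 codons, and 0 of these codons changed the amino acid. The first 60 coding bases from the GENCODE 29 transcripts (GRCh38) are given 5′ to 3′, with capitals at the 13 positions where the genes differ. H3F3A lies on the plus strand of chromosome 1 and H3F3B on the minus strand of chromosome 17.
H3F3A: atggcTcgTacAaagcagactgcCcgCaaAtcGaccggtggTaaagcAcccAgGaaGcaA
H3F3B: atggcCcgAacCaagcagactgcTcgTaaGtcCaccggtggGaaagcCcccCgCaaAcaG

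The H2A.Z genes are printed for the same reason. H2AFZ and H2AFV differed at 76 of 387 coding bases and in 66 of 128 codons, 3 of which changed the amino acid. Capitals mark the 12 differences in the first 60 coding bases. Both genes lie on the minus strand, H2AFZ on chromosome 4 and H2AFV on chromosome 7.
H2AFZ: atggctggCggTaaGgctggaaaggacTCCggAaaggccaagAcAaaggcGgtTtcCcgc
H2AFV: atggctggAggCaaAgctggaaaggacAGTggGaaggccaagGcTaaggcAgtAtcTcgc

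H2AFX stood apart from the other members in its message. The histone stem-loop, searched by name on both strands with a fully paired stem, was found in the annotated 3′ UTR of 1 of the 8 members, H2AFX, where it began 49 bases after the stop codon with 1044 transcript bases after it. Among all 16172 listed transcripts with a sequence it was found in the 3′ UTR of 23 (0.142%). The other 22 were replication-dependent histone genes, of 63 listed. The rest of the 63 cannot be read as lacking a stem-loop, since only a strict pattern lying in an annotated 3′ UTR was counted. On the antisense strand the pattern was found in 0 transcripts. Whether the H2AFX footprints came from a message ending near the stem-loop or from a longer one was not tested. The H2AFX element (chromosome 11, minus strand) is printed beside that of HIST1H3H (chromosome 6, plus strand), which had the highest mean level of those 22, with the stem-loop in capitals.
H2AFX: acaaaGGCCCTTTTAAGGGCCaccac
HIST1H3H: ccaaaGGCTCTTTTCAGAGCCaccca

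Many short stretches of these coding sequences also occur elsewhere in the transcriptome. Of the 28-base windows of H3F3A, about the size of a footprint, 100.0% (384 of 384) were also found in a pseudogene transcript, H3F3AP4 alone holding all 384. For H2AFZ the share was 58.6% and for H2AFV 44.7%, in processed pseudogenes in each case. H3F3B shared 46.4% of its windows with the protein-coding retrocopy H3F3C. H2AFX shared 17.8% with other protein-coding genes, mostly replication-dependent H2A genes such as HIST3H2A. H2AFY, H1FX and H1F0 shared 0 windows. The handling of reads with several matches is not stated in the sources used here, so the levels of the first 5 genes are uncertain by an amount that was not tested. H3F3A and H3F3B shared 0 windows with each other, as did H2AFZ and H2AFV. Annotated antisense genes overlap H2AFZ, H2AFY, H3F3A and H1FX, and UNK overlaps H3F3B on the opposite strand; whether strand was used in counting is not stated either.

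**Figure D1:**
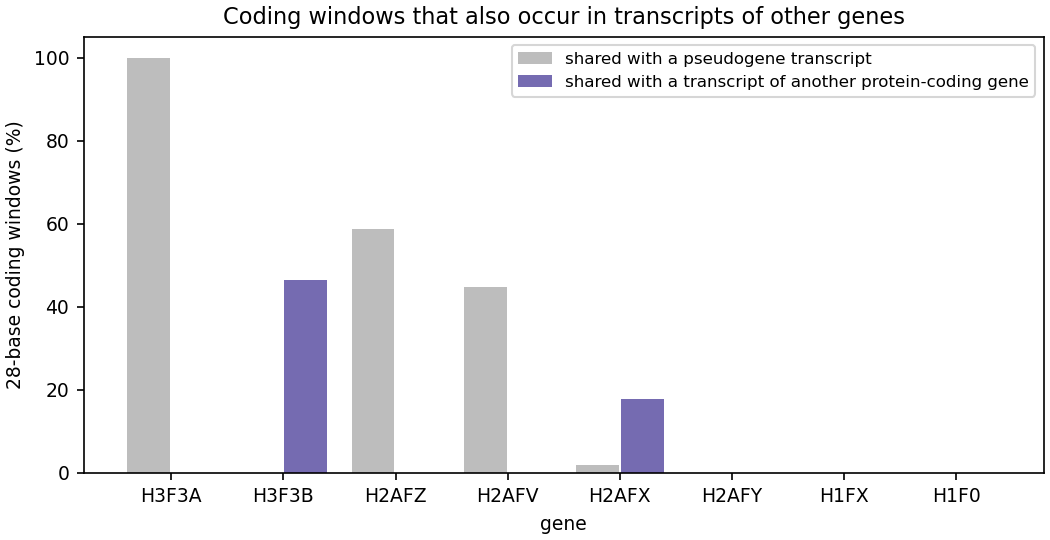
Share of the 28-base windows of each coding sequence (y axis, percent) that also occur in a pseudogene transcript (grey) or in a transcript of another protein-coding gene (purple), for the 8 genes. H3F3A reaches 100% through pseudogenes, H3F3B shares 46.4% with another protein-coding gene, and H2AFY, H1FX and H1F0 share none.

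Depth differed between the libraries. The read totals recovered from the RPKM values (reads scaled by coding length and by the library's read total) were 2965243 for untreated wild type, 2555613 for wild type with the drug, 604506 for the untreated mutant and 993461 for the mutant with the drug. In wild type 0.540% of reads (0.531% to 0.548%, 95% Wilson interval) came from the 8 genes without the drug and 0.525% (0.516% to 0.534%) with it. In the mutant these shares were 0.448% (0.431% to 0.465%) and 0.444% (0.431% to 0.457%), below both wild type shares. All intervals here cover counting error only, since no group has a replicate, and reads from PCR without molecular identifiers are not independent molecules. RPL4 was at 2515 and 2586 RPKM in wild type and 1707 and 1439 RPKM in the mutant without and with the drug, and a transgene copy would be read as RPL4. Of the markers fixed for HEK293, VIM, KRT8, KRT18, NEFL and CDH2 (5 of 8) passed the filter used below and summed to 1678 and 1915 RPKM in wild type and 1354 and 1154 RPKM in the mutant. PAX2 and LHX1 lay between 1.61 and 7.42 RPKM, and NEFM was at most 0.732 RPKM and absent from the list of the untreated mutant, which is read as 0. The markers of other cells (ALB, PTPRC, COL1A1, COL3A1, HBB and CD3E) were each at most 6.68 RPKM.

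H3F3A (coding transcript at chromosome 1, 226063977 to 226072001, GRCh38) had the highest level of the 8 in each library. It was at 4104 RPKM in untreated wild type and 3720 RPKM in wild type with the drug, and at 3059 and 3265 RPKM in the mutant, in the same order. H3F3B (chromosome 17, 75778574 to 75779780) was at 1046 and 1211 RPKM in wild type and at 885 and 847 RPKM in the mutant. Both H3.3 genes were lower in the mutant libraries than in either wild type library. In wild type the drug library was the lower for H3F3A and the higher for H3F3B.

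H2AFZ (chromosome 4, 99948088 to 99950388) was at 3437 and 3106 RPKM in wild type and 2693 and 2752 RPKM in the mutant. Its paralog H2AFV (chromosome 7, 44834228 to 44848063) was at 812 and 795 RPKM in wild type and at 885 and 861 RPKM in the mutant. The mutant values were thus the lower for H2AFZ and slightly the higher for H2AFV, whose 95% Poisson intervals overlapped in all 4 libraries (740 to 852 RPKM in wild type with the drug, 768 to 1014 RPKM in the untreated mutant).

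H2AFX (chromosome 11, 119093854 to 119095467) was at 1916 and 1995 RPKM in wild type and 1670 and 1692 RPKM in the mutant. H2AFY (chromosome 5, 135333900 to 135399622) was at 462 and 499 RPKM in wild type and at 361 and 296 RPKM in the mutant. The mutant levels lay below both wild type levels for each of the 2 genes, and H2AFY with the drug was the lowest of its 4 values. Of 20 annotated H2AFY transcripts, 6 of them coding, the files list 1, so splice forms of macroH2A were not separated.

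H1FX (chromosome 3, 129314771 to 129316277) was at 414 and 424 RPKM in wild type and at 420.0 and 405 RPKM in the mutant, with overlapping intervals in all 4 libraries. H1F0 (chromosome 22, 37805093 to 37807436) was at 43.2 and 34.1 RPKM in wild type and at 132.9 and 48.2 RPKM in the mutant. The untreated mutant library stood above the other 3, with an interval of 97.7 to 177 RPKM against 32.0 to 69.6 RPKM in the mutant with the drug. These H1F0 levels rest on 75, 51, 47 and 28 reads, the fewest of the 8 genes. The files give 1 value per transcript, so where along the message these reads lay was not analysed.

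In untreated wild type the order of levels per length was H3F3A, H2AFZ, H2AFX, H3F3B, H2AFV, H2AFY, H1FX and H1F0, and only the intervals of H2AFY (439 to 486 RPKM) and H1FX (386 to 444 RPKM) overlapped among neighbours. In the untreated mutant the intervals of H3F3B and H2AFV (772 to 1011 and 768 to 1014 RPKM) and those of H3F3A and H2AFZ (2845 to 3284 and 2487 to 2912 RPKM) overlapped, and H1FX stood above H2AFY with overlapping intervals. With the drug in the mutant H1FX was above H2AFY with intervals apart (357 to 457 and 265 to 330 RPKM). Ranked among listed transcripts, H3F3A lay between place 46 and place 60 in the 4 libraries, and H1F0 between 1329 and 3957.

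**Figure D2:**
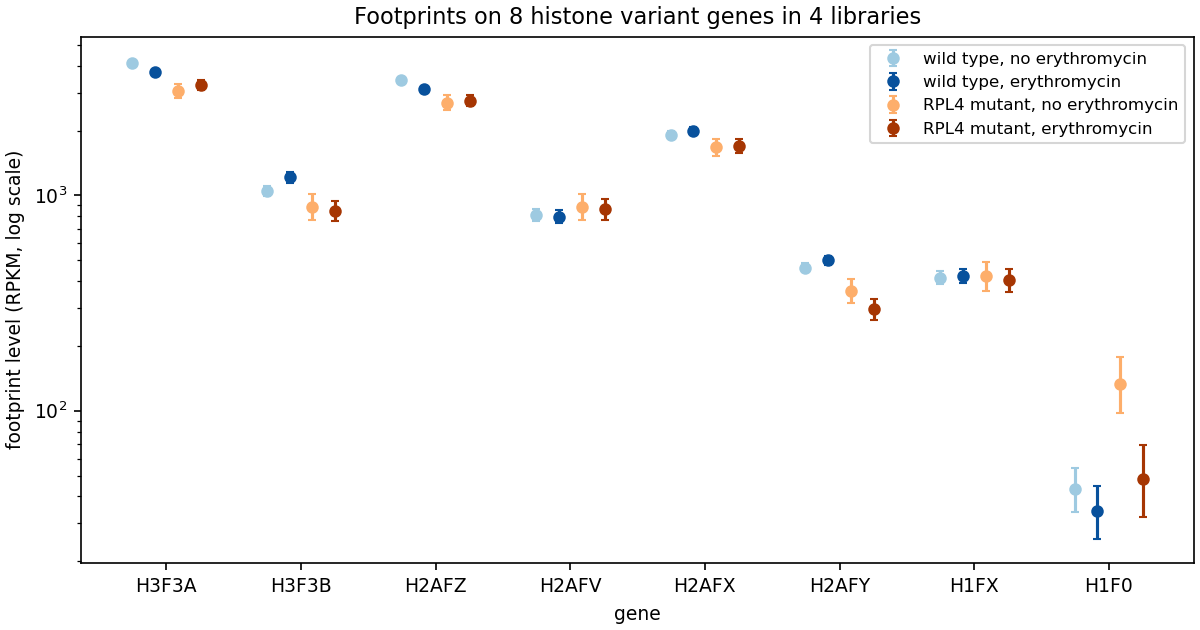
Footprint level (y axis, RPKM, log scale) of each of the 8 genes (x axis) in the 4 libraries (colours); points are single libraries and bars are 95% Poisson intervals for counting error. H3F3A, H3F3B, H2AFZ, H2AFX and H2AFY lie lower in the mutant libraries (orange), H2AFV and H1FX do not, and H1F0 is highest in the untreated mutant at 132.9 RPKM.

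Single differences below are log2 ratios of RPKM plus 1, centred on the median of the 9612 genes whose mean over the libraries was 5 RPKM or more. All 8 members passed that filter. Brackets hold 95% counting intervals of the ratio of reads, centred alike. With 1 library a side there is no replicate check, no p is given, and a difference of at least 2-fold counts as called.

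In wild type, the question was how footprint levels differ when erythromycin is present. The 2 H3.3 genes went opposite ways. H3F3B was higher with the drug, at 0.23 [0.11, 0.34], and H3F3A lower, at −0.13 [−0.19, −0.07]. H2AFZ was lower at −0.13 [−0.20, −0.06] and H2AFY higher at 0.13 [0.02, 0.23]. The intervals of H2AFX (0.07), H1FX (0.05), H2AFV (−0.02) and H1F0 (−0.32 [−0.87, 0.21]) held 0. Of the 8 members 0 were called in either direction, where 1.73% of all genes tested were called higher and 1.54% lower. Intervals above 0 were seen for 2 members and below 0 for 2, against 14.2% and 13.9% of all genes with known reads, and 30.5% and 25.4% of the 1023 genes with at least 100 reads in each library. The members' median was 0.02.

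In RPL4 mutant cells H1F0 was lower with erythromycin by −1.50 [−2.25, −0.81], and it was the 1 member called, where 3.39% of genes were called lower and 6.22% higher. H2AFY was lower at −0.34 [−0.58, −0.09]. The intervals of the other 6 held 0, from −0.12 for H3F3B to 0.04 for H3F3A, and the members' median was −0.10. Thus 0 members had an interval above 0 and 2 below it, against 7.21% and 7.69% of all genes and 9.38% and 27.0% of the deeply read ones. Those deeply read genes had a median of −0.11, with 67.7% below 0, close to the members' own. Set against that median, the interval of H2AFY held 0 (−0.23 [−0.48, 0.01]), that of H3F3A lay above 0 (0.15 [0.02, 0.28]) and H1F0 stayed below it (−1.39 [−2.14, −0.71]). H1F0 is not itself among the deeply read genes, and both its values rest on few reads, 47 without and 28 with the drug.

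The difference between the genotypes' drug responses (mutant minus wild type) was below 0 for H1F0 at −1.18 [−2.03, −0.34], for H2AFY at −0.46 [−0.73, −0.21] and for H3F3B at −0.34 [−0.61, −0.08]. It was above 0 for H3F3A at 0.17 [0.03, 0.31]. The other 4 intervals held 0: H2AFZ 0.11, H2AFV −0.08, H2AFX −0.11 and H1FX −0.16. So 3 of 8 members had an interval below 0 and 1 above it, against 10.6% and 8.71% of all genes and 32.9% and 12.0% of the deeply read ones. The deeply read genes had a median of −0.13 in this difference, and RPL4 was at −0.35 [−0.46, −0.24]. Set against that median, H1F0 (−1.05 [−1.89, −0.21]) and H2AFY (−0.33 [−0.59, −0.07]) had intervals below 0, and H3F3A (0.30 [0.16, 0.44]) and H2AFZ (0.24 [0.08, 0.40]) above it. The interval of H3F3B then held 0 (−0.21 [−0.48, 0.06]). H1F0 is not itself deeply read, so that median is not matched to it. Of the 8 members 1, H2AFY, had drug differences of opposite sign in the genotypes with both intervals apart from 0, against 2.9% of all genes and 13.3% of the deeply read ones.

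Between the genotypes without the drug, the question was how footprint levels differ when RPL4 is mutated. H3F3A was at −0.40 [−0.51, −0.29], H2AFY at −0.33 [−0.53, −0.14], H2AFZ at −0.33 [−0.45, −0.20], H3F3B at −0.21 [−0.43, −0.01] and H2AFX at −0.17 [−0.32, −0.03]. H2AFV (0.15 [−0.08, 0.37]) and H1FX (0.05 [−0.21, 0.29]) were not lower. H1F0 was higher at 1.62 [1.09, 2.19], and it was the 1 member called, where 5.29% of genes tested were called higher and 3.32% lower. So 5 of 8 members had intervals below 0 and 1 above it, against 9.29% and 9.5% of all genes with known reads. Since 7 members are deeply read, the shares among the deeply read genes, 36.8% below and 14.1% above, are the nearer background.

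With erythromycin, H2AFY was the lowest member in the mutant, at −0.81 [−0.99, −0.64]. H3F3B followed at −0.58 [−0.75, −0.41], then H2AFX at −0.30 [−0.42, −0.18], H3F3A at −0.25 [−0.34, −0.16] and H2AFZ at −0.24 [−0.34, −0.14]. H1FX (−0.13 [−0.34, 0.08]), H2AFV (0.05 [−0.14, 0.24]) and H1F0 (0.42 [−0.28, 1.13]) had intervals that held 0. Of the 8 members 0 were called, where 7.02% of genes were called higher and 2.26% lower. Of the 8 members 5 had an interval below 0 and 0 above it, against 16.9% and 16.1% of all genes and 56.3% and 15.1% of the deeply read ones.

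Much of the lower level in the mutant was shared with other deeply read genes. The 1023 deeply read genes, 7 members among them, had a median, mutant over wild type, of −0.13 for untreated cells and −0.24 for cells given the drug, and 66.2% and 72.6% of them were below 0. Against that median, the members' own medians of −0.19 and −0.24 differed by −0.07 and 0.00. Set against deeply read genes in the untreated cells, H3F3A (−0.27), H2AFZ (−0.20) and H2AFY (−0.20) had intervals below 0, and H1F0 (1.75) and H2AFV (0.28) above it. H1F0, at 75 reads in wild type and 47 in the mutant, is not itself deeply read, so that median is not matched to it. With the drug, H2AFY (−0.57) and H3F3B (−0.33) had intervals below 0 and H2AFV (0.30) above it, while H3F3A (−0.01), H2AFZ (0.01) and H2AFX (−0.06) did not differ from such genes beyond counting error.

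**Figure D3:**
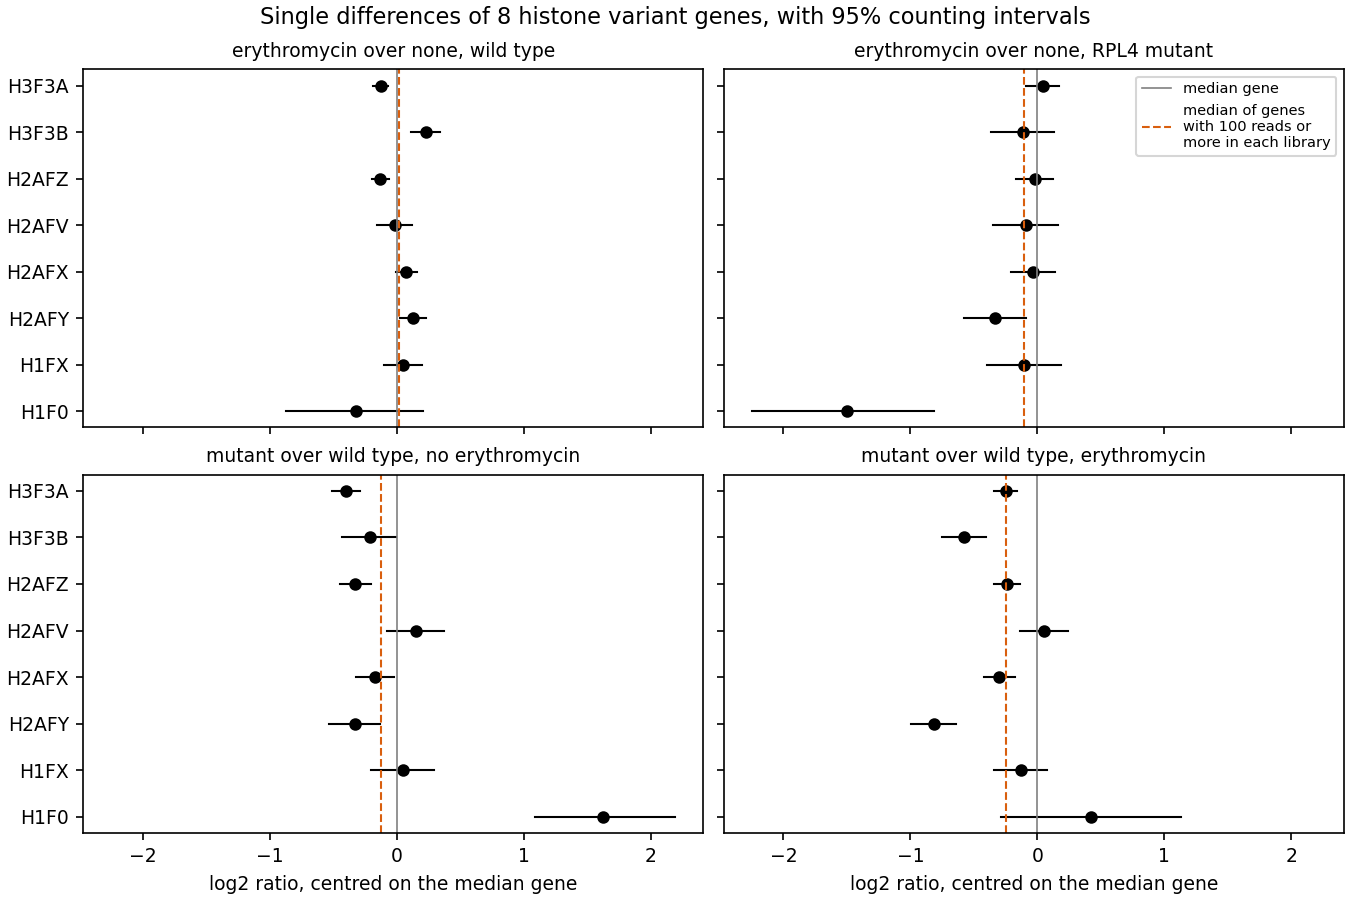
Centred log2 ratio (x axis) of each of the 8 genes (y axis) in the 4 single comparisons; points are values from 1 library a side, bars are 95% counting intervals, the grey line is the median gene and the dashed line the median of 1023 genes with at least 100 reads in each library. H1F0 lies at 1.62 in the untreated mutant over wild type, and at −1.50 in the mutant with over without the drug; in mutant over wild type with the drug, H2AFY is the lowest at −0.81.

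The 4 libraries were also fitted together in limma, with additive terms for genotype and treatment over all 9612 genes. With 1 residual degree of freedom this is exploratory. That residual is the difference between the genotypes' drug responses, so the SE and p values do not measure spread between replicates. For the mutant, 0 of 8 members passed an adjusted p of 0.05, where 1.20% of genes rose and 0.0832% fell. H1F0 was at 1.03 (SE 0.306, adjusted p = 0.177), H2AFY at −0.56 (SE 0.200, adjusted p = 0.273), H3F3B at −0.39 (adjusted p = 0.391), H3F3A at −0.32 (adjusted p = 0.346), H2AFZ at −0.27 (adjusted p = 0.434) and H2AFX at −0.23 (adjusted p = 0.557). H2AFV was at 0.11 and H1FX at −0.03. At an unadjusted p under 0.05 there were 4 members (H1F0, H2AFY, H3F3A and H3F3B), where 11.8% of all genes were. That share was not counted among the deeply read genes, to which 7 members belong. When centred on those genes, the mutant effects were −0.38 for H2AFY, −0.13 for H3F3A, −0.20 for H3F3B and 1.22 for H1F0. For erythromycin 0 of 8 passed, where 0.125% rose and 0 genes fell, and 1 member, H1F0 (−0.91, adjusted p = 0.722), had an unadjusted p under 0.05, where 5.62% of genes had. The H1F0 mutant call depended on the filter on low values: with a mean of at least 20 RPKM its adjusted p was 0.027, and with no filter 0.00631, under which its erythromycin effect passed too (−0.92, adjusted p = 0.0394).

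Ratios between paired genes within a library do not depend on how libraries are scaled. H3F3A exceeded H3F3B by 3.92-fold (95% interval 3.69 to 4.18) in untreated wild type and by 3.07-fold (2.88 to 3.28) with the drug, a log2 change of −0.35 [−0.48, −0.23]. In the mutant the ratio was 3.46 (2.97 to 4.03) and 3.85 (3.42 to 4.35), a change of 0.16 [−0.12, 0.43]. H3F3A gave 79.7% of the summed H3.3 level in untreated wild type and 75.4% in wild type with erythromycin, the lowest share of the 4 libraries.

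H2AFZ exceeded H2AFV by 4.23-fold (3.94 to 4.55) and 3.91-fold (3.61 to 4.23) in wild type, and by 3.04-fold (2.60 to 3.58) and 3.20-fold (2.82 to 3.63) in the mutant. The log2 change from wild type to mutant was −0.48 [−0.72, −0.23] without and −0.29 [−0.50, −0.08] with the drug, while the drug changed the ratio by −0.11 [−0.27, 0.04] in wild type and 0.07 [−0.22, 0.36] in the mutant. H1FX over H1F0 was 9.57 (7.55 to 12.3) and 12.4 (9.35 to 16.9) in wild type, 3.16 (2.27 to 4.47) in the untreated mutant and 8.40 (5.67 to 12.9) in the mutant with the drug. The untreated mutant had the lowest ratio, with an interval apart from the other 3. These ratios rest on 75, 51, 47 and 28 H1F0 reads, in the same order. How often ratios of other gene pairs change beyond counting error was not counted for any of these pairs.

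**Figure D4:**
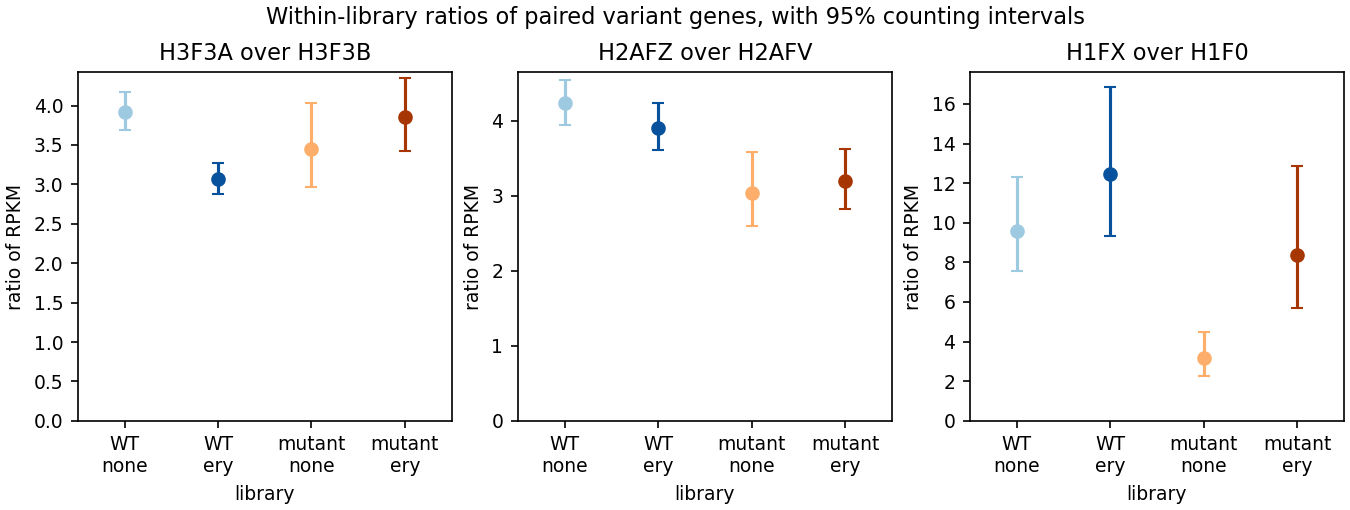
Ratio of RPKM within each library (y axis) for H3F3A over H3F3B, H2AFZ over H2AFV and H1FX over H1F0; points are single libraries (WT, wild type; ery, erythromycin) and bars are 95% counting intervals. H3F3A over H3F3B is lowest in wild type with the drug at 3.07, H2AFZ over H2AFV is lower in the mutant libraries, and H1FX over H1F0 is lowest in the untreated mutant at 3.16.

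By summed RPKM as deposited, the variants were a minor part of the H3, H2A and H1 footprints. Windows that replication-dependent genes share with each other were not counted, and the handling of reads with several matches is not stated. The shares and ratios below are therefore uncertain by an amount that was not tested. The 2 H3.3 genes held 18.9% and 21.6% of the summed RPKM of H3.3 and 13 replication-dependent H3 genes in wild type without and with the drug, and 19.9% and 19.6% in the mutant. Their ratio to the replication-dependent H3 genes changed with the drug by 0.24 [0.18, 0.30] in wild type and −0.03 [−0.15, 0.10] in the mutant. H2AFX relative to the 14 replication-dependent H2A genes changed by 0.20 [0.12, 0.29] and −0.09 [−0.27, 0.09]. H2AFZ with H2AFV relative to those genes changed by 0.02 [−0.05, 0.09] and −0.10 [−0.23, 0.04]. From wild type to mutant without the drug the same ratios changed by 0.09 [−0.01, 0.20] for H3.3, 0.00 [−0.15, 0.15] for H2AFX and −0.05 [−0.16, 0.06] for H2AFZ with H2AFV, all intervals holding 0. With the drug all 3 were lower in the mutant, by −0.17 [−0.26, −0.09], −0.29 [−0.42, −0.17] and −0.17 [−0.26, −0.07]. Of the summed H1 level, H1FX and H1F0 held 2.40% in each wild type library, 3.41% in the untreated mutant and 2.70% in the mutant with the drug.

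Next to the members, the replication-dependent histones (55 of 63 passed the filter) had medians, mutant over wild type, of −0.26 for untreated cells and −0.17 for cells given the drug, with 46 and 41 of 55 below 0. By limma 1 of the 55 fell in the mutant, HIST1H3I (−3.05, adjusted p = 7.84e-05, 195, 100, 5 and 4 reads), and 0 rose. Their genes with the highest mean footprint levels were HIST1H4C, HIST1H3B and HIST1H1E, at mutant effects that did not pass.

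Of 9 symbols of other variant genes, 5 were listed and 3 passed the filter, with 0 limma calls. CENPA, the centromeric H3, was at 98.9 and 72.2 RPKM in wild type and 54.8 and 71.4 RPKM in the mutant. H2AFY2, the other macroH2A gene, was at 78.1 and 69.6 RPKM and at 63.6 and 58.5 RPKM, lower in both mutant libraries. H3F3C, which shares windows with H3F3B, was at 36.4 and 87.3 RPKM in wild type and 97.3 and 56.7 RPKM in the mutant, with a higher level with the drug in wild type (1.25 [0.74, 1.83]), while in the mutant the value was −0.82 with an interval that held 0 ([−1.72, 0.06], 24 and 23 reads). In wild type H3F3B was also higher with the drug. For mutant over wild type without the drug the 2 genes went opposite ways, H3F3C at 1.42 [0.66, 2.2] and H3F3B at −0.21 [−0.43, −0.01]. With the drug both were lower in the mutant, at −0.67 [−1.41, −0.01] and −0.58 [−0.75, −0.41]. The part of reads that match both genes was not tested.

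Of the 36 symbols of chaperones and exchange complexes that place variants in chromatin, 33 were tested. Their median in the mutant was 0.06 without and −0.23 with the drug, and 0 passed limma for either factor. SET, a chaperone of the nucleosome assembly family, was at 471 and 605 RPKM in wild type and 500.3 and 385 RPKM in the mutant. NAP1L1, of the same family, was at 396, 537, 376 and 391 RPKM in the same order, and ZNHIT1, a subunit of the complex that exchanges H2A.Z, at 245, 334, 338 and 396 RPKM. Genes listed for the DNA break response around phosphorylated H2A.X (12 of 14 tested) had medians of 0.21 and −0.02 in the mutant, and 0 passed. Not all of them make or bind phosphorylated H2A.X. RNF8, BAZ1B and CHEK2 had the highest levels among them, from 21.8 to 42.9 RPKM. DNA replication genes (38 of 39 tested) had medians of −0.08 and −0.23 in the mutant, and −0.01 and −0.14 with the drug in wild type and mutant, with 0 passing. TYMS (771, 732, 597 and 642 RPKM), RRM2 (551, 617, 483 and 467 RPKM) and PCNA (554, 577, 499 and 429 RPKM) were lower in both mutant libraries than in either wild type library. So were H3F3A, H3F3B, H2AFZ, H2AFX and H2AFY, while H2AFV, H1FX and H1F0 were not. VIM, KRT8 and RPL4, which are not on the replication list, had that order too. The HEK293 markers KRT18, NEFL and CDH2, which also passed the filter, did not. The deeply read genes had medians, mutant over wild type, of −0.13 without and −0.24 with the drug. Of these genes 66.2% and 72.6% were below 0. The share of genes lower in both mutant libraries than in either wild type library was not counted. How far proliferation went with the members' levels was not tested.

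The summed level of the 8 genes was 12234 and 11783 RPKM in wild type and 10105 and 10165 RPKM in the mutant. Over these 4 libraries the nearest patterns among 3035 other genes averaging 50 RPKM or more were those of RAB8A (distance 0.0213 in centred log2 levels), RPL27A (0.0358) and DCAF13 (0.0404). With 4 points such likeness is a description only.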

How the data were processed

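The authors deposited 1 RPKM value per Ensembl transcript for each of the 4 Ribo-seq libraries. Per the submitters' processing notes, the tools included STAR and cutadapt and the build was GRCh38; versions, counter and annotation are not stated in the sources used here. Transcripts not listed in a library were taken as 0. Of 16292 transcripts, 16172 matched GENCODE 29. RPKM times coding length came within 0.001 of whole reads for 99.15% to 99.2% of these, which gave the library totals. Analysis used log2(RPKM + 1) for the 9612 genes averaging 5 RPKM or more, with ratios centred on their median. limma 3.58.1 (R 4.3.3) fitted genotype plus treatment with a variance trend and Benjamini-Hochberg adjustment. A run on simulated reads, with counting error and genotype changes only, checked that known changes were recovered. The rate of false calls under the spread of these data was not tested. Intervals are exact conditional binomial for ratios of reads, Poisson for levels, Wilson for shares, and normal on the log scale for differences of ratios.

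For limma each library was centred on its median log2 difference from untreated wild type. This centring was chosen after the data were seen: a first fit centred on each gene's mean, several other centrings were then tried, and the one kept was that whose count of erythromycin calls matched an earlier analysis of these data. The counts under the others are given with the processing alternatives.

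The members and the gene lists were also chosen with earlier results of these data known. Named genes were all 8 members, RPL4, the 3 genes with the highest mean level and every limma call of each list, and the 3 genes nearest to the members' summed level. The other variants and cell markers named beyond these were chosen after their values were seen. Alternatives were other pseudocounts, filters, centrings and limma models.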

Additional observations from a re-analysis of the deposited data

Results flagged for a closer look

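H2AFY was the 1 of 8 members whose drug differences had opposite signs in the 2 genotypes with both counting intervals apart from 0: 0.13 [0.02, 0.23] in wild type and −0.34 [−0.58, −0.09] in the mutant. The same was seen for 2.9% of all genes with known reads, for 13.3% of those with at least 100 reads in each library, and for RPL4 (0.06 [0.01, 0.10] and −0.30 [−0.40, −0.20]). Set against the median of the deeply read genes, the mutant interval of H2AFY held 0 (−0.23 [−0.48, 0.01]), so the pattern depends on the centring. The direct difference was −0.46 [−0.73, −0.21], or −0.33 [−0.59, −0.07] against those genes. These are counting intervals only; with 1 library per group the difference between genotypes was not tested.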

How the results depend on the processing

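No paired analysis was possible because each group has 1 library and no replicate numbers. Each member has 1 listed transcript, so summing transcripts gives the same values. For the members' summed reads, centring on genes with at least 100 reads gave 0.040 for the drug in the mutant, and −0.12 without and −0.060 with the drug for mutant over wild type. It also turned the median over members with the drug to 0.00097 and H2AFZ to 0.0077. Without H3F3A, the most-read member, the summed value was 0.019 for the drug in wild type and −0.18 for the untreated mutant. For mutant over wild type with the drug it was −0.36 with a filter at 1 RPKM, −0.19 at 20 RPKM (median −0.13) and −0.24 without centring.

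limma called 123 genes for the mutant and 12 for erythromycin. Of the centrings tried before the reported one was chosen, centring on each gene's mean called 187 and 24, the library median 185 and 22, and quantile normalization 141 and 18. The reported centring thus gave the fewest calls of these 4, and 0 of 8 members passed under any of them, the lowest adjusted p being 0.11 (H1F0, mutant). Other settings gave 209 and 31 (pseudocount 0.1), 290 and 62 (filter at 1 RPKM), 441 and 149 (no filter), and 194 and 26 (no centring). Without the variance trend there were 65 and 0, with 500 genes at an unadjusted p under 0.05 for the drug, and with only the tested factor 54 and 0, with 242 such genes. For erythromycin the filter at 20 RPKM gave 40 and centring on genes with at least 100 reads gave 2. The cause of these changes was not tested. H1F0 passed for the mutant at 20 RPKM and without a filter, and for erythromycin without a filter; the other 7 members passed under none of the settings. H1F0 rests on 28 to 75 reads per library.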
